A study of Drosophila melanogaster with 24 samples.

Results

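Among 16637 transcripts measured in whole female flies, 191 were lower under dietary restriction (DR) than on the other diet (AL) and showed a smaller diet difference when the drug RU486 was given. They are the transcripts with a mean above 8 log2 over all 24 arrays, a DR minus AL difference without RU486 (called a here) of −0.6 log2 or lower, and a DR minus AL difference with RU486 (called b) that was above 0.5 times a and above −0.8. Each group's value was the median of its 6 arrays. The members were chosen by these values, so the differences between the groups are given as a description, with no test. They make up 32.6% of the 585 transcripts that were bright and had an a of −0.6 or lower, and 1.15% of all transcripts.

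The working name for these transcripts is restriction-repressed and restored by RNAi induction. In the values that chose them the return was partial only, with none on DR in 3 members. The DR group with RU486 had a lower median than the AL group without RU486 for 190 of the 191 members, and a lower median than the AL group with RU486 for 187. At the median member, 37.1% of the diet difference was left with RU486.

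Each array held RNA from a pool of about 35 females aged 13 days, with 6 pools in each of 4 groups. Both diets were given with and without RU486 (mifepristone), and the DR flies had been on DR food for 10 days. The labels do not spell out AL. All flies, controls included, were +/+; Act5c-GS-Gal4/+; P{GD3482}v8105 /+, so they carried 1 copy of the driver and 1 of the RNAi insertion. The GS (GeneSwitch) form of GAL4 is designed to be switched on by RU486, and the Act5c promoter is active in most tissues. Whether the driver was silent without the drug was not tested here. From general knowledge of this fly collection and not from the labels, the insertion targets ACC, the acetyl-CoA carboxylase that makes malonyl-CoA for fatty acid synthesis. No group lacked the transgene while receiving the drug, so what the drug does by itself and what the induced RNAi does cannot be told apart. ACC's own transcript was not analysed here.

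Dietary restriction is the feeding of a reduced diet without starvation, and in flies it is known to lengthen life and to lower egg laying. It changes the balance between storing and burning fat, and the series, by its title, asks what fatty acid synthesis and breakdown contribute to the response in muscle cells, although the arrays read whole flies. A transcript that is lower on DR can be made less in each cell or come from fewer cells of a type, and these cannot be told apart in RNA from whole flies.

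The identifiers are FlyBase transcript numbers. The table of RefSeq genes used here, of assembly Release 6, gave no symbol for 190 of the 191 members, and the remaining member is listed there under 2 genes. No member can therefore be assigned a function, except for that one, and the members are described by identifier. The gene lists and the markers of ovary, fat body, muscle and gut had 0 matches, so the labelled tissue was not checked.

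The 2 arrays that stood apart from their groups over all transcripts were pool 1 of AL with RU486 and pool 3 of DR with RU486. Their SDs of transcript deviations from the group means were 0.365 and 0.228 log2, against 0.101 to 0.159 on the other arrays. Without both arrays the rule gave 175 transcripts, of which 159 were among the 191. The medians of a and b over the chosen transcripts were then −0.67 and −0.26 log2, against −0.67 and −0.25 with all arrays. For arrays it is their number that limits the precision, and random control probes set a background of 7.35 to 7.68 log2. All 191 members were above it on 24 of 24 arrays. Of all 16637 transcripts, 12945 to 14350 were above it on each array. The rule asks for a mean above 8 log2, higher than this background, so the members' count is largely set by the choice. The background averaged 7.57 and 7.58 log2 in AL pools without and with RU486, and 7.37 and 7.49 in DR pools. It was thus lower on DR too, and less so with RU486, the same direction as in the members. Its part in the members' values was not tested.

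The mean log2 value over the 191 members was taken on each array. It was 10.36 ± 0.07 (SD, n = 6) in AL pools without RU486, with a lowest of 10.28, a median of 10.35 and a highest of 10.45. It was 10.22 ± 0.04 in AL pools with RU486, running from 10.18 through 10.21 to 10.30. In DR pools without RU486 it was 9.65 ± 0.13, from 9.45 through 9.68 to 9.82. In DR pools with RU486 it was 9.97 ± 0.10, from 9.81 through 9.96 to 10.09. Each DR pool thus lay below each AL pool, with or without the drug. The DR groups touched at 1 place, where pool 6 without RU486 (9.82) was just above pool 1 with it (9.81). The AL groups overlapped.

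Over all 12134 bright transcripts the same mean was 10.35 ± 0.01 and 10.35 ± 0.02 on AL without and with RU486, and 10.44 ± 0.01 and 10.41 ± 0.06 on DR. The mean over bright transcripts was thus slightly higher on DR, while their median a was slightly below 0, at −0.07 log2. Pool 3 of DR with RU486 had the lowest mean over bright transcripts, 10.28, and at the same time the highest mean over the members in its group, 10.09. The part of this array's shift in the members' values was not tested.

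**Figure D1:**
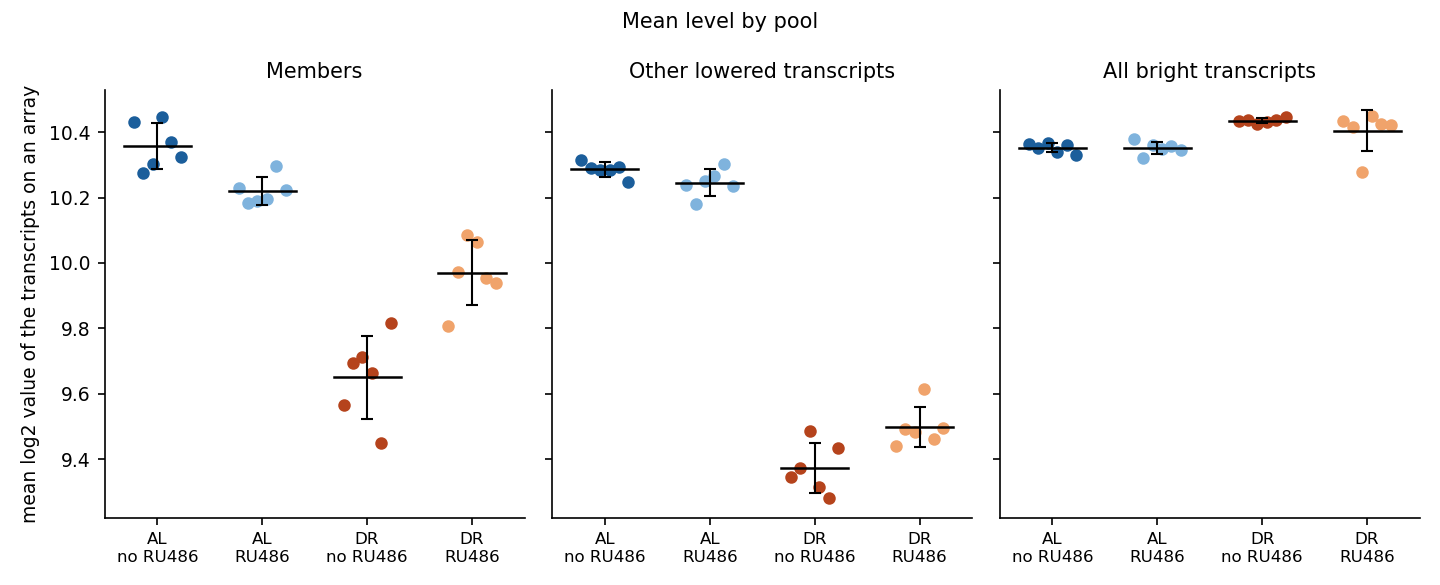
Mean log2 value per array (vertical axis) over the 191 members, the other 394 bright transcripts with an a of −0.6 or lower, and all 12134 bright transcripts, by group (horizontal axis). Points are pools, the bar is the group mean and the whiskers are ±1 SD over 6 pools. The members' DR pools with RU486, from 9.81 to 10.09, sit below the AL pools. They lie above the other DR pools, save that pool 1 with RU486 is just below pool 6 without it (9.82).

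The other 394 bright transcripts with an a of −0.6 or lower are those the rule left out. Of these, 273 missed only because b was not above 0.5 times a, 121 missed that bound and the bound of −0.8, and 0 missed the bound of −0.8 alone. Their mean over transcripts was 10.29 ± 0.02 and 10.25 ± 0.04 log2 on AL without and with RU486 (SD, n = 6), and 9.37 ± 0.08 and 9.50 ± 0.06 on DR. Their median a of −0.71 log2 was close to the members' −0.67, while their median b was −0.57 against −0.25. The rule divides both sets on b, so this gap follows from the choice. The opposite pattern, an a of 0.6 or higher with a b below 0.5 times it and below 0.8, was met by 215 of 2297 bright transcripts, or 9.36%.

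**Figure D2:**
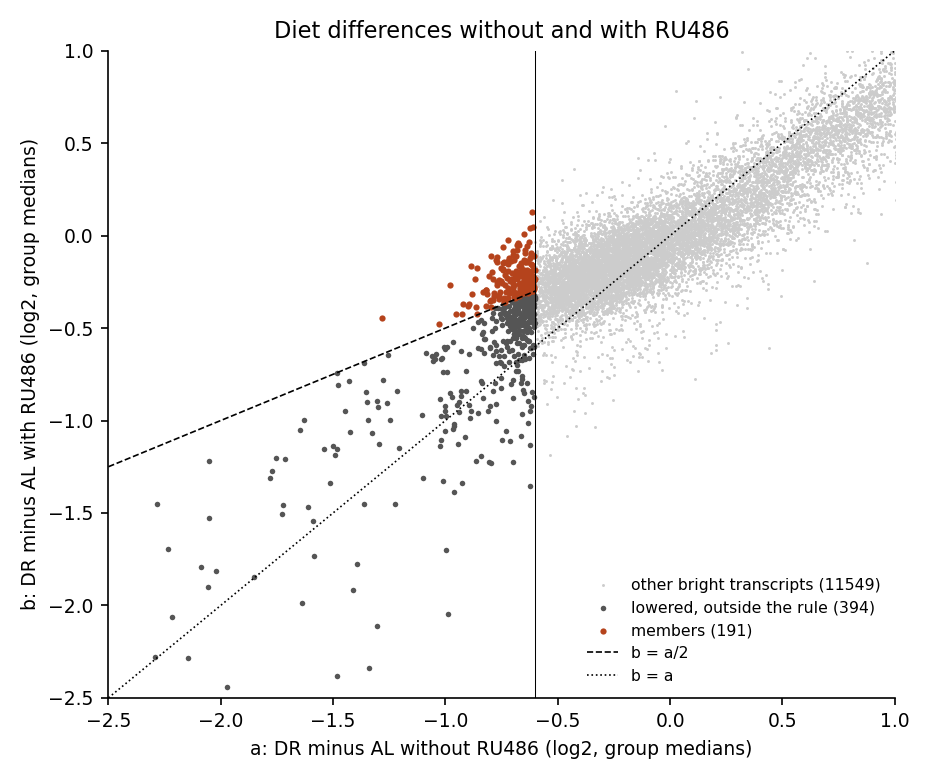
Diet difference without RU486 (a, horizontal axis) against that with RU486 (b, vertical axis), in log2 of group medians, for bright transcripts. Orange points are the 191 members, dark points the 394 other lowered transcripts and grey points the remaining 11549. Outside the axes of −2.5 to 1 lie 1060 bright transcripts, 10 of them other lowered ones and 0 members, and the members lie above the dashed line at 0.5 times a.

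Most members sat close to the bound on a. It ran from −1.28 to −0.60 log2 with an interquartile range of −0.74 to −0.63, and only 2 members had an a of −1 or lower. At the edge, FBtr0088482 was inside with an a of −0.6003 and FBtr0076889 outside with −0.59999. For b, FBtr0072210 was inside with 49.4% of its a left and FBtr0073583 outside with 50.01%. For brightness, FBtr0078552 was inside at 8.23 log2 and FBtr0113347 outside at 7.94, although its a was −1.21 and its b −0.42. Brightness of the members ran from 8.23 to 11.94 log2 with a median of 10.06, and 153 of them lay between 9 and 11. Transcripts with a brightness inside the members' interquartile range, 2914 in all, had a median a of −0.22 and a median b of −0.13 log2, so transcripts at this level were in general somewhat lower on DR.

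The gap between b and a is the RU486 difference on DR minus that on AL, and both sides entered it. With RU486 the group median was higher on DR for 188 members and lower on AL for 184, and for 181 both held. Among the other lowered transcripts 77.7% were higher on DR and 61.7% lower on AL, and among all transcripts 52.8% and 52.2%. The median RU486 difference was 0.32 log2 on DR and −0.15 log2 on AL. On DR 5 members were higher by more than 0.5 log2, and on AL 4 were lower by more than 0.5 log2. The rise on DR was larger than the drop on AL for 167 members, and at the median member 67.8% of the gap came from DR. The rule used these same group medians, so the signs, the counts and this share are partly set by the choice. The order from high to low of untreated AL, AL on RU486, DR on RU486 and untreated DR held for 177 members (92.7%) and for 185 of the 394 other lowered transcripts (47.0%), though the rule itself favours it in the members.

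To see how much of this rests on choosing and measuring with the same arrays, the choice was repeated without 1 pool number in all 4 groups, and the 4 arrays left out were then read. This was added after the data were seen. The 6 repeats chose 158 to 299 transcripts, of which 121 to 174 were among the 191. On the arrays left out the median a was −0.58 log2, with a range over the 6 repeats of −0.85 to −0.45, and the median b was −0.27, with a range of −0.44 to −0.11. The gap between them was 0.37 (0.15 to 0.48), against 0.45 (0.44 to 0.47) on the 20 arrays that chose the transcripts. It was above 0 in all 6 repeats, and for 72.8% to 95.6% of the chosen transcripts. Over all bright transcripts the gap on the same arrays was −0.10 to 0.03, and it was above 0 for 40.0% to 54.6%. For the other lowered transcripts of each repeat the gap was 0.20 (0.04 to 0.29), and it too was above 0 in all 6 repeats.

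The RU486 difference on DR was 0.26 log2 on the arrays left out, from 0.11 when number 6 was left out to 0.49 for number 5. On AL it was −0.06, from −0.20 for number 4 to −0.03 for number 5, against −0.15 (−0.18 to −0.13) on the choosing arrays. Over bright transcripts these differences ran from −0.10 to 0.03 on DR and from −0.02 to 0.02 on AL. Over the other lowered transcripts they ran from 0.03 to 0.26 on DR, with a median of 0.14, and from −0.08 to 0.02 on AL. A higher level on DR with RU486 was thus seen in that set as well. The difference on AL was thus smaller on arrays that had not chosen the transcripts, −0.06 against −0.15, while on DR it was 0.26 against 0.32. The 6 repeats share most of their arrays and are not independent. The whole rule was met again on the 4 arrays left out by 6.69% to 57.5% of the chosen transcripts, and by 0.816% to 9.92% of bright ones.

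**Figure D3:**
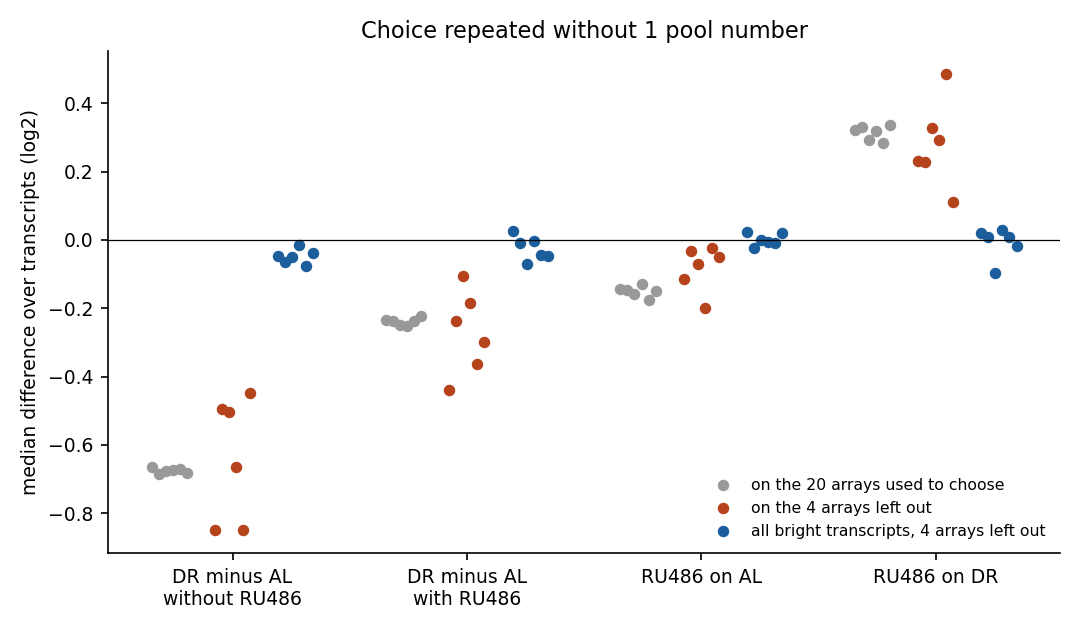
Median difference over transcripts in log2 (vertical axis) for the 2 diet and 2 RU486 comparisons (horizontal axis), with 1 point for each pool number left out. Grey points are the 20 arrays that chose the transcripts, orange points the 4 arrays left out, and blue points all bright transcripts on those 4 arrays; on DR the orange RU486 points run from 0.11 to 0.49.

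With 1 array left out of the choice, the median of its values for the chosen transcripts was set against the AL median without RU486. Left-out DR pools without RU486 were lower by −0.93 log2 (pool 5) to −0.49 (pool 6), and left-out DR pools with RU486 by −0.55 (pool 1) to −0.23 (pool 3). The ranges overlapped at pools 6 and 1. Against the DR median without RU486, left-out DR pools with RU486 were higher by 0.13 (pool 1) to 0.46 (pool 3). Left-out DR pools without RU486 ran from −0.24 (pool 5) to 0.20 (pool 6) against the same median, so these ranges overlapped too. The arrays behind that median helped choose transcripts that were low on them, and a left-out array therefore tends to lie above it. Likewise, the arrays behind the AL median without RU486 helped choose transcripts that were high on them. A left-out array tends to lie below that AL median. Left-out AL pools without RU486 ran from −0.12 (pool 3) to 0.06 (pool 4) against it.

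Counts by single transcript were taken with limma fitted over all transcripts (Benjamini-Hochberg, adjusted p below 0.05). The rule used the diet contrasts and their gap, so nothing is read from these counts. For diet without RU486, 191 of 191 members passed as lower, beside 35.5% of all transcripts, and 0 as higher, beside 29.7%. For diet with RU486, 115 passed as lower, beside 24.3%, and 0 as higher, beside 24.5%. The interaction passed as higher for 114, beside 3.33%, and as lower for 0, beside 3.19%. For RU486 on DR, which shares its arrays with the rule, 130 passed as higher, beside 5.95%, and 1, FBtr0087664, as lower, beside 7.78%. Without pool 5 of DR without RU486, the total for RU486 on DR was 76 in place of 131. For RU486 on AL, 2 passed as lower, FBtr0087664 and FBtr0088485, beside 0.337%, and 59 had an unadjusted p below 0.05, beside 4.57% of all transcripts. None passed as higher, beside 0.289%, and 0 had an unadjusted p below 0.05, beside 3.88%.

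Overlap between pools gives the same contrasts without a model. The rule used the medians of these same pools, so nothing is read from these counts either. All 6 DR pools lay below all 6 AL pools without RU486 for 183 members, beside 24.2% of all transcripts, and with RU486 for 32, beside 10.9%. All 6 DR pools with RU486 lay above all 6 without it for 47 members, beside 2.77%. All 6 DR pools with RU486 were below all 6 AL pools without it for 101 members, beside 13.6%. On AL, the pools with RU486 were all below those without it for 5 members, beside 0.769%, and all above them for 0, beside 0.619%.

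The members with the lowest a are described first. FBtr0088675 gave the cleanest separation among them. Its log2 values were 9.57 to 9.92 on AL without RU486 (median 9.80), 9.47 to 9.74 on AL with it (median 9.53), 8.64 to 8.98 on DR without it (median 8.85) and 8.98 to 9.23 on DR with it (median 9.11). Neither DR group reached an AL group, and all 6 DR pools with RU486 lay above those without, by a narrow margin at pool 5 with and pool 1 without it. Its a was −0.95 log2, or 1.94-fold lower, and its b −0.42.

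FBtr0072133 ran from 9.24 to 9.48 log2 on AL without RU486, from 9.08 to 9.28 on AL with it, from 8.11 to 8.63 on DR without it and from 8.59 upward on DR with it, with medians of 9.37, 9.14, 8.44 and 8.71. The DR groups overlapped by 1 pool. FBtr0076729 had medians of 10.38 and 10.27 on AL and of 9.48 and 9.89 on DR, without and with RU486. Its DR pools ran from 9.09 to 9.70 and from 9.69 to 10.12, so these groups too met at a single pool. Both transcripts stayed below the AL pools without RU486 in every DR pool. One DR pool of FBtr0076729 with RU486, pool 3 at 10.12, was just above the lowest AL pool with RU486, at 10.10.

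FBtr0089418 and FBtr0077013 were less even between pools. FBtr0089418 had medians of 10.83 and 10.62 log2 on AL and of 9.91 and 10.25 on DR. Its AL and DR pools overlapped. The highest DR pool with RU486, pool 4 at 10.62, was above 3 AL pools with RU486, among them pool 1 at 9.91, and above the lowest AL pool without it, at 10.59. FBtr0077013 had medians of 11.87, 11.82, 10.97 and 11.45 in the order of AL without and with and DR without and with RU486. Its DR pools without RU486 ran from 10.67 to 11.59, and the highest, pool 1, was within the range of 11.13 to 11.60 of the pools with RU486.

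The largest gap between b and a, 0.84 log2, belonged to FBtr0086620, whose groups all overlapped. FBtr0077327 had a gap of 0.71 log2 with an RU486 difference of only 0.09 on DR. Both are described below. In others among the largest gaps, DR pools with RU486 came near the AL pools with RU486. FBtr0085414 ran from 10.39 to 10.69 log2 on AL without RU486 (median 10.52), from 9.40 to 9.90 on DR without it (median 9.73) and from 10.12 to 10.345 on DR with it (median 10.19). On AL with RU486 its median was 10.30, with 5 pools from 10.22 to 10.37 and pool 1 at 11.26. The DR groups did not overlap, and 13.5% of a was left in b. FBtr0088485 had values of 10.61 to 10.92 on AL without RU486, 9.97 to 10.64 on AL with it, 9.96 to 10.11 on DR without it and 10.12 to 10.48 on DR with it. Its DR groups were just apart, and its b was −0.06 log2, with an RU486 difference of −0.38 on AL beside 0.31 on DR.

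FBtr0077125 and FBtr0070108 had the same shape with more overlap. The former had medians of 10.52, 10.18, 9.80 and 10.16 log2 over AL without, AL with, DR without and DR with RU486, and 3.41% of a was left in b. The latter had medians of 10.52, 10.29, 9.66 and 10.12, with 20.3% left. In each, 5 of 6 DR pools with RU486 were above all DR pools without it. FBtr0089902 had medians of 9.17, 8.91, 8.29 and 8.74, with AL pools on RU486 from 8.38 to 10.38, of which the highest was pool 1.

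In 4 members b was above 0 by group medians. By group means 4 members were above 0 as well, but of the 4 described here only FBtr0113926 was among them, at 0.00056 log2, and the others were at −0.05 (FBtr0089944), −0.09 (FBtr0076663) and −0.03 (FBtr0080410). The sign of b in these 3 others thus depends on the use of medians. FBtr0113926, one of the dimmest, had medians of 8.61 and 8.36 log2 on AL and of 7.99 and 8.49 on DR, without and with RU486, and a b of 0.13. Its AL pools with RU486 ran from 7.94 to 9.02 and took in all its DR pools with RU486, which ran from 8.01 to 8.79. By medians FBtr0089944 had a b of 0.05, FBtr0076663 of 0.04 and FBtr0080410 of 0.01. For these 3 the DR median with RU486 was 10.64, 9.91 and 9.89, against 10.93, 10.11 and 10.16 on AL without the drug. In these 3 members a b near 0 went with a lower AL median on RU486, which choosing the highest b favours. The AL difference did not pass in limma for any of them. By medians the level of untreated AL flies was not regained.

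Pool 1 of DR with RU486 was the lowest of its group for FBtr0080410, at 9.53 against 9.83 to 10.00 in the other pools. It was also the lowest in its group for the mean over all members.

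The 3 members FBtr0087664, FBtr0080281 and FBtr0273329 were not higher on DR with RU486, and they met the rule through AL alone. FBtr0087664 ran from 9.66 to 10.30 log2 on AL without RU486 (median 10.07), from 8.91 to 9.21 on AL with it (median 9.11), from 8.77 to 9.29 on DR without it (median 9.05) and from 8.53 to 8.75 on DR with it (median 8.63). The AL groups did not overlap and neither did the DR groups, with RU486 lower on both diets, by −0.97 and −0.42 log2. For FBtr0080281 the medians were 10.86 and 10.23 on AL and 10.14 and 10.09 on DR. For FBtr0273329 they were 12.43 and 11.88 on AL and 11.58 and 11.46 on DR, with DR pools spread from 11.04 to 12.18 without and from 10.81 to 12.16 with RU486. These transcripts carry the gap between b and a without any return on DR, and restored is no fitting word for them.

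FBtr0077327 was close to them, at 9.77 and 9.15 log2 on AL and 8.79 and 8.88 on DR in medians. Its AL values of 9.49 to 9.95 without and 9.09 to 9.50 with RU486 met at 1 pool. Its DR values of 8.45 to 8.90 and 8.39 to 9.33 lay over each other, and the RU486 difference on DR was 0.09.

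FBtr0086620 and FBtr0087386 had the largest RU486 differences on DR, 1.05 and 0.87 log2, or 2.07-fold and 1.82-fold, and the largest spread between pools, with SDs within groups of 0.77 and 0.58 log2 against 0.17 at the median member. FBtr0086620 had the lowest a of all members, −1.28 log2 or 2.43-fold lower. It ran from 9.58 through 10.25 to 11.10 on AL without RU486, from 9.64 through 10.46 to 11.42 on AL with it, from 7.97 through 8.97 to 10.22 on DR without it and from 8.91 through 10.01 to 11.16 on DR with it. Each group overlapped each of the others.

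FBtr0087386 ran from 10.47 through 10.71 to 11.44 on AL without RU486 and from 10.41 through 10.98 to 11.33 with it, and on DR from 9.52 through 9.90 to 10.93 and from 9.54 through 10.77 to 12.10. The groups overlapped throughout. The deviations of these 2 transcripts from their group means went together over 24 arrays (Pearson's r = 0.78, and 0.79 without the 2 arrays that stood apart), which was looked at after their values were seen. They were also among the 7 members with a higher AL median on RU486, at 0.21 and 0.28 log2. FBtr0071229 followed at 0.10, with medians of 9.37 and 9.47 on AL and of 8.64 and 9.13 on DR.

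The 4 brightest members had means from 11.72 to 11.94 log2. One is FBtr0273329, above. FBtr0113766 had medians of 12.26, 12.09, 11.62 and 11.88 over AL without, AL with, DR without and DR with RU486. FBtr0081950 had 12.04, 11.95, 11.42 and 11.75. FBtr0081228 ran from 11.86 to 12.14 on AL without RU486 and had medians of 11.93, 11.32 and 11.60 in the other groups. Its DR pools, at 11.10 to 11.45 without and 11.52 to 11.87 with RU486, did not overlap.

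**Figure D4:**
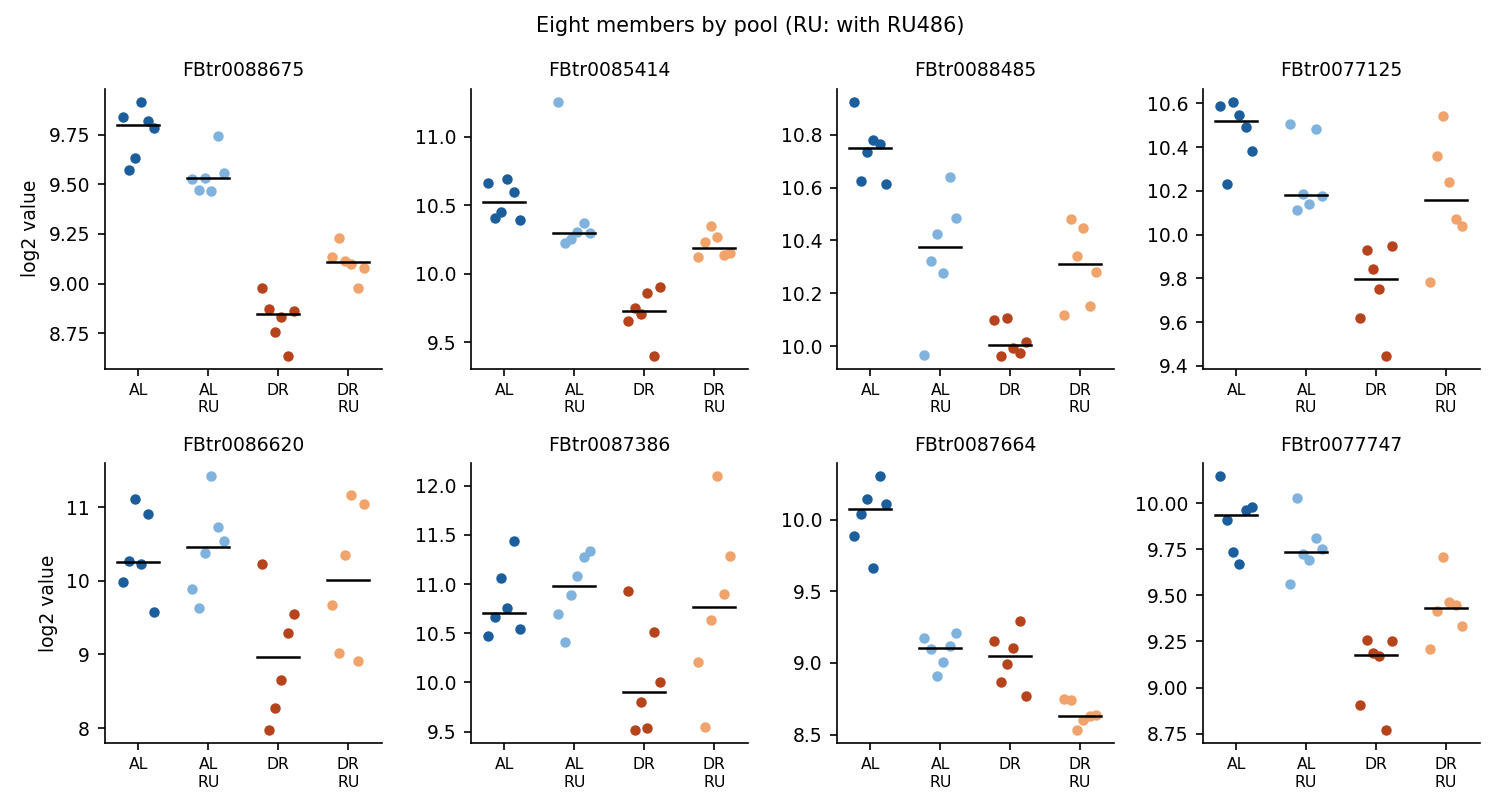
Log2 values of 8 members (vertical axes, each with its own range that does not start at 0) in the 24 pools by group (horizontal axis), with bars at the group medians. FBtr0088675, FBtr0085414 and FBtr0088485 have separate DR groups, FBtr0086620 and FBtr0087386 overlap throughout, and FBtr0087664 is lower with RU486 on both diets.

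The only member with an entry in the gene table was FBtr0077747, which the table lists under Sws1 as the upstream reading frame and under Rad1 as the main reading frame of the same transcript. Rad1 is a subunit of the clamp that marks damaged DNA for the cell cycle checkpoint. Since the probes read the transcript, its values belong to neither gene alone. It ran from 9.67 to 10.15 log2 on AL without RU486 (median 9.94), from 9.56 to 10.03 on AL with it (median 9.74), from 8.77 to 9.26 on DR without it (median 9.18) and from 9.21 to 9.71 on DR with it (median 9.43). Of the 6 DR pools with RU486, 5 were above all DR pools without it, and 1 reached the AL range. Its a was −0.76 and its b −0.30 log2, and all 8 of its probes had a b above a. This a lay below the members' interquartile range of −0.74 to −0.63 log2, and this b at the lower edge of theirs, −0.30 to −0.18.

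The probes of a member moved much alike. All 191 members had 8 probes, 1528 in all, and 1527 of these were lower on DR without RU486. The exception was a probe of FBtr0087664. For 1408 probes b was above a. All 8 probes did so in 106 members, 7 in another 54, and at least 5 in each of the rest. Probes both lower on DR and less so with RU486 made up 92.1% of the members' probes and 38.8% of all probes. A member's value is the mean of its probes, so these shares are not independent of the rule. Each probe's name ends in a number that orders the probes within a transcript and whose meaning is not stated. From the lowest to the highest number, the median a by rank lay between −0.73 and −0.66 log2 and the median b between −0.27 and −0.20, with no drift from one end to the other. The highest number had a median of 1357 in the members, 1004 in the other lowered transcripts and 1135 in bright ones.

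The deviations of single pools from their group means were also compared. They come from the arrays that chose the members, and which transcripts pass depends on single pools, with 154 chosen without DR pool 5 and 282 without DR pool 6, both without RU486. They are therefore not independent of the rule. Over all pairs of members, the mean Pearson's r of these deviations across 24 arrays was 0.29, against 0.07 for pairs of the other lowered transcripts and 0.03 for pairs of bright ones. In the 215 transcripts of the opposite pattern, chosen by the mirrored rule, it was 0.22, so a high mean r was not confined to the members. Of 18145 pairs of members 31.9% had an r above 0.5, against 12.3% of pairs of bright transcripts. Without the 2 arrays that stood apart the 3 means were 0.41, 0.12 and 0.01. The points share arrays, so these values are a description.

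**Figure D5:**
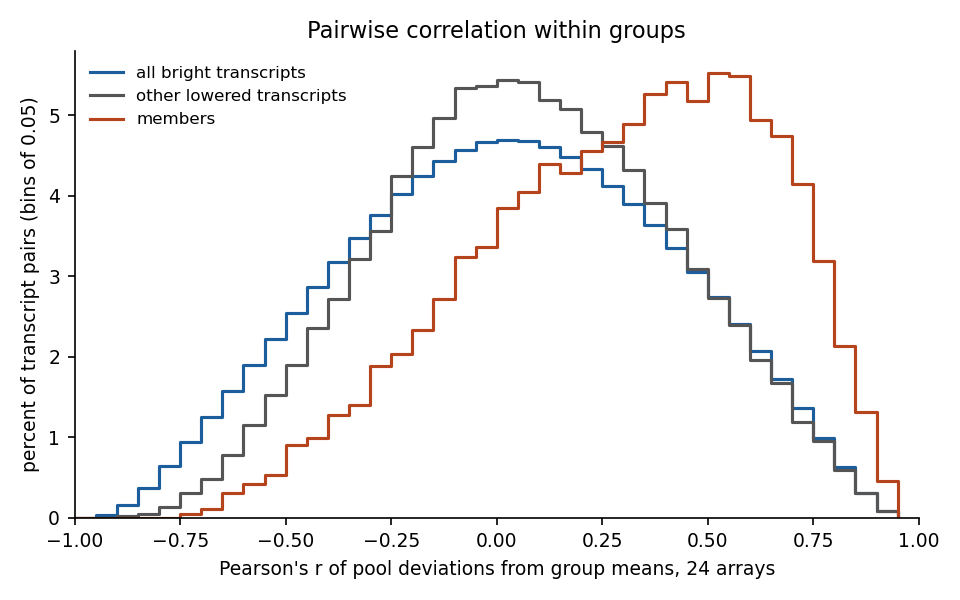
Percent of transcript pairs (vertical axis, bins of 0.05) by Pearson's r of their pool deviations from group means over 24 arrays (horizontal axis), for members, other lowered and all bright transcripts. The members are shifted to the right, with a mean r of 0.29 against 0.07 and 0.03.

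The common pattern showed most on DR. Without RU486, pool 5 was below the group median for all but 10 members and pool 6 above it for 181. With RU486, pool 1 was above the group median for 18 members and pool 3 for 158. In the other lowered transcripts pool 5 without RU486 was lowest as well, at a mean of 9.28 log2, but the highest was pool 3, at 9.49. The 215 transcripts of the opposite pattern were at their highest in DR pool 5 without RU486 (10.76 log2). Each member was also set against the sum of the others. Here r had a median of 0.57, and it was above 0.5 for 115 members, with FBtr0083835 highest at 0.87 (named for its r after the values were seen). It was below 0 for 6, among them FBtr0087664 (−0.64), FBtr0080281 (−0.36), FBtr0084486 (−0.14), FBtr0087386 (−0.05), FBtr0273329 (−0.05) and FBtr0086620 (−0.04). Of these, 5 are the members described above as moving on AL alone or as spread between pools, and FBtr0084486 was likewise named for its r. Its medians were 10.23 and 10.22 log2 on AL and 9.44 and 9.99 on DR.

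Some members may share a gene, which the files do not tell. No 2 probes in the file had identical values. In 6 cases a member's identifier number followed directly on that of another. The deviations of FBtr0112455 and FBtr0112456 had an r of 0.88 and those of FBtr0085413 and FBtr0085414 of 0.87, while the other such pairs lay between 0.15 and 0.58. The spread within groups was much like that of other transcripts, with a median SD of 0.17 log2 in the members, 0.18 in the other lowered transcripts and 0.15 in bright ones. The member with the smallest SD, FBtr0075972 at 0.07 log2 and named for it, had medians of 9.24, 9.12, 8.61 and 8.85 over AL without, AL with, DR without and DR with RU486.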

How the data were processed

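The deposited values are on a log2 scale, 1 per probe and array, with the base read off the values, which span 6.09 to 16.51. The submitters' processing notes name limma without a version; the background correction, normalization, log base, genome build and slides are not stated in the labels. The deposited log2 values were used as given. Of 137090 probes, 4091 random ones were dropped, and 132999 were averaged into 16637 transcripts by the first 11 characters of their names. Background was the 95th percentile of 511 means of 8 random probes on each array.

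Comparisons used limma 3.58.1 in R 4.3.3 with 1 mean per group over 24 arrays and Benjamini-Hochberg adjustment over all transcripts; the fit was checked on simulated data. Per the labels, extraction, amplification and Cy3 labelling were randomized across groups. Nothing in the labels says that pools came from separate cultures, so p-values measure the spread between these pools. The members and lists were chosen with earlier results of these data known. Members are named by rule: the 8 lowest a, the 8 largest gaps between b and a, the 4 highest b, the 3 largest rises and 3 largest drops on AL with RU486, the 4 brightest, and those at each threshold; FBtr0077747 was added for its table entry, and a few others after their values were seen, as said beside them. Of 8 gene lists and the markers, 0 symbols matched. Figures were drawn with matplotlib 3.10.9. Alternatives were other probe summaries, normalizations, rule thresholds, array weights, a replicate block, a filter on dim transcripts and arrays left out.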

Additional observations from a re-analysis of the deposited data

Results flagged for a closer look

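A group of 6 pools was looked at for a single value far from the others (Dixon's test) in 24 named members and their overall mean. By chance about 1 group in 20 holds such a value, and 6 of 100 groups did. In 4 of these it was pool 1 of AL with RU486, an array that stood apart from its group as a whole. That pool was the highest for FBtr0085414, at 11.26 log2 against 10.37 in the next pool, for FBtr0076663, at 10.28 against 9.96, for FBtr0071229, at 10.02 against 9.50, and for FBtr0273329, at 12.67 against 11.89. In the same group pool 5 was the highest for FBtr0088675, at 9.74 against 9.55. Pool 1 of DR with RU486 was the lowest for FBtr0080410, at 9.53 against 9.83. Group medians were used for these members, so 1 such pool moves a or b little. Differences in the RU486 response between diets were not singled out member by member, because the rule chose the members for them.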

How the results depend on the processing

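The number of members was 360 with medians over probes (127 of the 191 among them), 326 with arrays centred on their medians (139), 248 after quantile normalization (143) and 237 with group means in the rule (146), against 191. With a bound on a of −0.5 it was 461 and with −0.8 it was 21, where the medians of a were −0.58 and −0.87 log2, and that of b at −0.8 was −0.35. Leaving out 1 array, or 1 pool number in all groups, gave 154 to 299 members. The lowest came without pool 5 of DR without RU486 and the highest without pool number 6. The medians over the transcripts chosen in each run, which the rule itself holds within bounds, were −0.68 to −0.67 log2 for a, −0.26 to −0.22 for b, −0.18 to −0.13 for RU486 on AL and 0.28 to 0.34 for RU486 on DR.

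Among the 191, limma's calls with 1 array left out numbered 190 to 191 for diet without RU486, 88 to 126 for diet with RU486, 76 to 162 for RU486 on DR, 87 to 153 for the interaction and 1 to 4 for RU486 on AL. The last was 1 without AL pools 3 or 5 without RU486 or AL pools 2 or 4 with RU486, 4 without DR pool 3 with RU486, and 9 with array weights. With the replicate block it was 1 in place of 2, and the other counts were 191, 113, 123 and 110; the labels do not say that pool numbers pair samples, and same-numbered pools had an r of deviations from −0.31 to 0.25. For the named members' 4 differences, 63 of 2976 recomputed values lost a call and 65 gained one. In 0 did the sign change where either fit gave a call, and changes of sign without a call were not counted. The cause was not tested.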
